A study of Mus musculus with 8 samples.

Results

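The feedback genes of fibroblast growth factor (FGF) signalling through the kinase ERK were examined in whole cerebellum as 10 genes taken by name from a count table of 24060 rows: the transcription factor genes Etv1, Etv4 and Etv5, the inhibitor genes Spry1, Spry2, Spry4 and Dusp6, and the receptor genes Fgfr1, Fgfr2 and Fgfr3. All 10 were found, and all 10 were among the 15186 genes that passed the filter on low counts. Tissue came from 4 bigenic mice, which carried CalExflox and the astrocyte-directed, tamoxifen-activated recombinase Aldh1l1-Cre/ERT2, and from 4 control mice, which carried CalExflox without Cre. CalEx is a plasma membrane calcium pump that lowers calcium inside cells, and CalExflox expresses it only after Cre has acted. Every mouse received tamoxifen once at 75 mg/kg into the peritoneum, given in corn oil at 25 mg/ml, and cerebella were collected after 5 days. No label used here gives sex or age, and Cre is present in the bigenic mice alone, so an effect of the pump and an effect of Cre cannot be told apart, and no row of the table names the construct. The genes were chosen with the contrast of bigenic and control mice known, so their values in that contrast are a description. Where a call of the fit across all genes is given for a member, it describes that fit and is no independent test of the choice.

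FGFs bind receptor tyrosine kinases together with heparan sulphate chains and activate ERK through Ras and Raf. ERK activity raises transcription of the Etv genes of the PEA3 family and of Spry and Dusp6 genes, partly by relieving repression by Capicua. Sprouty proteins then restrain the step between receptor and Raf, and the phosphatase DUSP6 removes phosphate from ERK, so transcripts of this group are widely used as a readout of the pathway. In the developing cerebellum, Bergmann glia, the radial astrocytes of the cortex, need FGF signalling and use Etv4 and Etv5.

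Counted reads ranged from 35208460 to 38293012 per library, and the members held between 90 reads (Spry4 in bigenic library 1) and 6378 reads (Fgfr3 in the same library). Levels are given as CPM, read counts scaled to library size and to a factor for the make-up of each library (TMM). Markers of the tissue were present: the Purkinje cell gene Pcp2 averaged 653 ± 25.5 CPM in bigenic mice and 588 ± 44.2 CPM in control mice (SD, n = 4 each). Choroid plexus markers stood apart in part of the control group: 10 genes summed to between 49.0 and 56.0 CPM in bigenic mice, against 362, 2551, 3190 and 46.7 CPM in control mice 1 to 4. Their part in the results below was not tested, and the counts and calls below that change without control libraries 2 and 3 are given with the value found without them.

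The 10 genes did not move as 1 block. Spry1 and Fgfr3 were higher in bigenic cerebellum, Etv4, Etv5 and Fgfr2 were lower in every bigenic library than in any control library, Spry2, Spry4 and Etv1 had lower means with overlapping values, and Dusp6 and Fgfr1 differed least. By edgeR's quasi-likelihood test with Benjamini-Hochberg adjustment over all genes, 2 members were higher and 5 lower at an adjusted p under 0.05, and 44.3% of all genes tested passed that threshold. The members called lower numbered 3 when bigenic mouse 1 or 4 or control mouse 2 or 3 was left out, and 2 with both of these control mice left out. In these fits, in that order, 38.9%, 36.4%, 34.5%, 36.6% and 21.9% of all genes tested were called in either direction. With all 8 libraries, 21.4% of all genes tested were called higher and 22.9% lower. The ranges of the groups lay apart for 5 of the 10 genes and for 40.7% of all genes tested. The median log2 fold change, bigenic over control, was -0.25 over the members and -0.0041 over all genes. In bulk tissue, fewer cells of a type and less RNA per cell cannot be told apart.

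**Figure D1:**
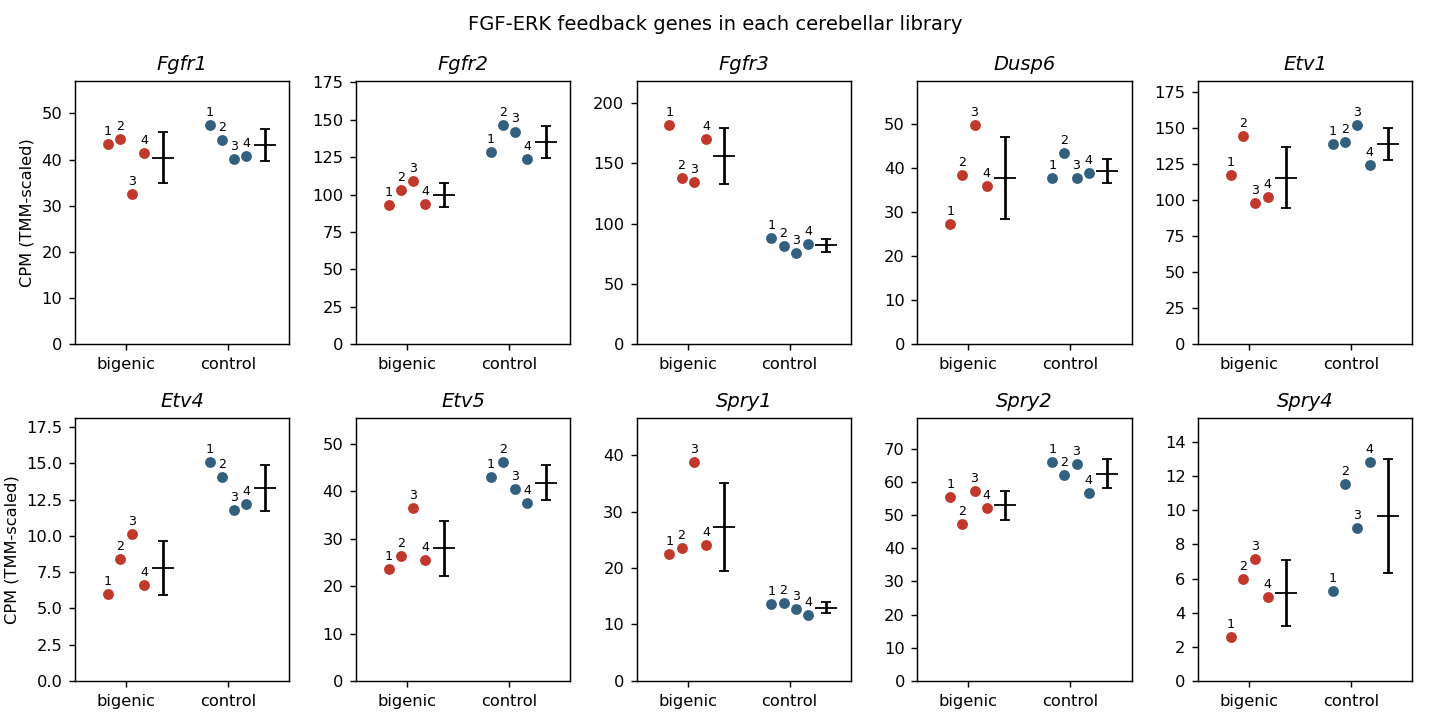
TMM-scaled CPM of the 10 genes (y axis, linear, from 0) in the 4 bigenic (red) and 4 control (blue) libraries, with library numbers above the points and the group mean ± SD beside them. The groups do not overlap for Fgfr2, Fgfr3, Etv4, Etv5 and Spry1, and bigenic library 3 holds the highest Spry1 value, 38.8 CPM.

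The receptor genes differed among themselves. Fgfr3, a receptor gene expressed by astrocytes (chromosome 5, 33721724 to 33737068, plus strand), measured 182, 138, 134 and 170 CPM in bigenic mice 1 to 4, against 88.4, 81.6, 75.3 and 82.9 CPM in control mice 1 to 4. Each bigenic library was above each control library, and the log2 fold change was 0.93 ± 0.10 (SE), or 1.90-fold. Fgfr2, a receptor gene of glia (chromosome 7, 130162451 to 130266808, minus strand), measured 93.1, 103, 109 and 93.8 CPM in bigenic mice and 128, 147, 142 and 124 CPM in control mice. Here all bigenic values lay below all control values, with a log2 fold change of -0.44 ± 0.08 (SE). Control libraries 2 and 3, with most choroid plexus transcript, were its highest. Without them the log2 fold change of Fgfr2 was -0.34 and still passed. Fgfr1, which neurons and glia both express (chromosome 8, 25518759 to 25575718, plus strand), measured 43.3, 44.5, 32.5 and 41.5 CPM in bigenic mice and 47.5, 44.2, 40.2 and 40.8 CPM in control mice. Its groups overlapped, bigenic library 3 was the lowest of the 8, and the log2 fold change was -0.09 ± 0.11 (SE). GENCODE extends Fgfr2 to position 133123350, far beyond the RefSeq extent given above. In that annotation its exons overlap those of Ctbp2 on the same strand, so reads could be shared, which was not tested. Fgfr1 and Fgfr3 each overlap an antisense gene that the table does not list.

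Fgfr3 and Fgfr2 differed in opposite directions, and with them the make-up of the receptor transcripts. FPKM, which divides counts by gene length and depth, allows levels of different genes to be compared. Fgfr3 made up 61.4%, 52.8%, 53.2% and 59.98% of the summed FPKM of Fgfr1, Fgfr2 and Fgfr3 in bigenic libraries 1 to 4, against 37.5%, 33.9%, 33.1% and 37.6% in control libraries 1 to 4. Fgfr2 made up 30.2% ± 4.52 in bigenic and 48.1% ± 3.13 in control libraries (SD, n = 4 each), so the receptor with most transcript was Fgfr3 in each bigenic library and Fgfr2 in each control library. The ratio of Fgfr3 to Fgfr2 in FPKM averaged 1.93 ± 0.43 in bigenic and 0.743 ± 0.0968 in control libraries. Summed over the 3 receptors, FPKM was 60.4 ± 5.29 in bigenic and 54.1 ± 1.92 in control libraries, and these sums overlapped. FPKM carries no TMM factor, which was 0.950 to 0.983 in bigenic and 1.01 to 1.05 in control libraries. Divided by that factor, each bigenic sum lay above each control sum.

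**Figure D2:**
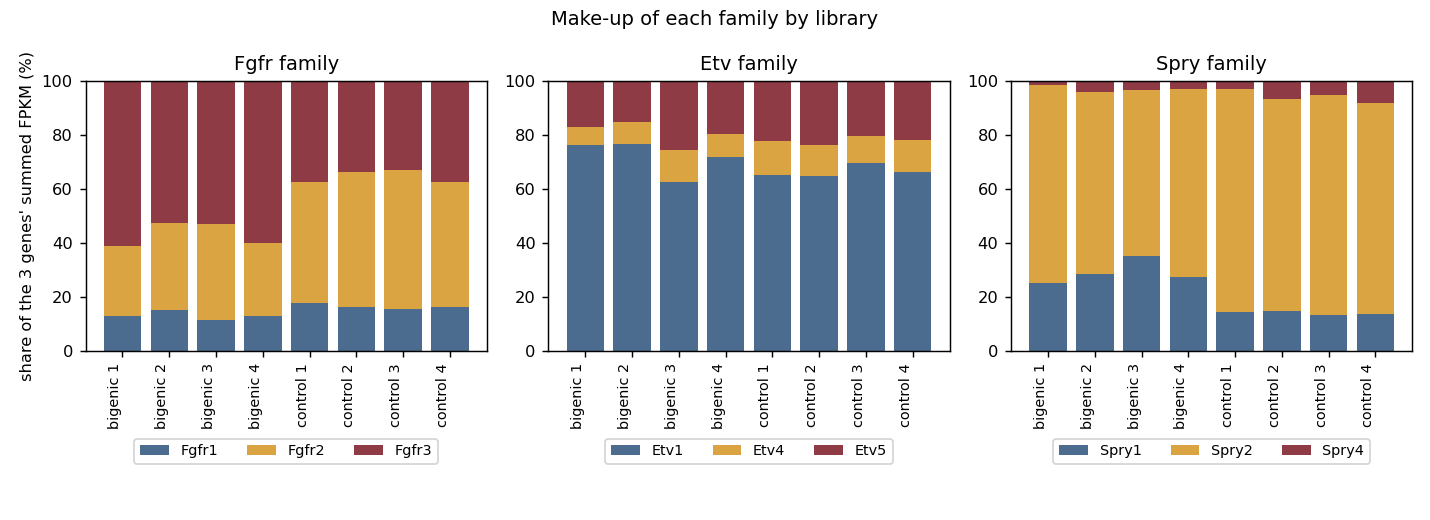
Share of each gene in the summed FPKM of its family (y axis, percent) in the 4 bigenic (left) and 4 control (right) libraries, for Fgfr1 to Fgfr3, for Etv1, Etv4 and Etv5, and for Spry1, Spry2 and Spry4. Fgfr3 holds 52.8% to 61.4% of the receptor sum in bigenic libraries and 33.1% to 37.6% in controls, and Spry1 holds 25.1% to 34.99% of the Sprouty sum in bigenic libraries and 13.4% to 14.7% in controls.

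Most astrocyte markers differed between the groups in the same direction as Fgfr3. The 11 other astrocyte markers summed to between 10646 and 11900 CPM in bigenic mice and between 8396 and 8561 CPM in control mice, and 7 of the 11 were called higher, 1 lower and 3 neither. With control libraries 2 and 3 left out, 4 were called higher and 0 lower, and on log2(FPKM + 1) 4 were higher and 1 lower. Of all genes tested, 44.3% were called with all 8 libraries and 21.9% without control libraries 2 and 3. These shares also stand beside the marker counts of other cell types below. Within the bigenic group the marker sum was highest in library 3, at 11900 CPM, where Fgfr3 was lowest, at 134 CPM. The log2 fold changes of the markers ran from -0.48 for the water channel gene Aqp4 to 1.23 for the gap junction gene Gjb6, with a median of 0.27. None was at 0: the marker with least transcript, Sox9, had a lowest value of 7.04 CPM in bigenic mice and 7.62 CPM in control mice. Fgfr3, at 0.93, lay inside this range and above its median. The part of the marker level in the Fgfr3 difference was not tested.

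All 3 PEA3-family factors had lower means in bigenic cerebellum. Etv4 (chromosome 11, 101769747 to 101785310, minus strand) measured 5.99, 8.41, 10.1 and 6.62 CPM in bigenic mice and 15.1, 14.1, 11.8 and 12.2 CPM in control mice. Etv5 (chromosome 16, 22381313 to 22439570, minus strand) measured 23.6, 26.3, 36.5 and 25.4 CPM in bigenic mice and 42.9, 46.3, 40.5 and 37.5 CPM in control mice. For both genes the groups did not overlap, although Etv5 in bigenic library 3 came close to control library 4. The log2 fold changes were -0.77 ± 0.16 for Etv4 and -0.58 ± 0.13 for Etv5 (SE). Etv1, which is abundant in granule cells (chromosome 12, 38780082 to 38870483, plus strand), measured 118, 144, 98 and 102 CPM in bigenic mice and 139, 140, 152 and 125 CPM in control mice. Bigenic library 2 lay among the controls, and the log2 fold change of Etv1 was -0.27 ± 0.12 (SE), which did not pass the threshold. It passed in 6 of 18 alternatives: without bigenic library 2 (-0.39), with library size alone (-0.35) or upper-quartile factors (-0.32) as the scaling, on log2(FPKM + 1) (-0.35) and log2(FPKM + 0.1) (-0.36) with a filter, and with the replicate block (-0.28). Without control libraries 2 and 3 the log2 fold change of Etv5 was -0.53 and no longer passed, while that of Etv4 was -0.81 and passed.

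The proportions of the 3 factors to each other overlapped between the groups. Etv1 made up 71.8% ± 6.51 of their summed FPKM in bigenic and 66.4% ± 2.32 in control libraries (SD, n = 4 each), with overlapping values. Etv4 made up 8.80% ± 2.02 in bigenic and 11.5% ± 1.27 in control libraries, and Etv5 19.5% ± 4.59 in bigenic and 22.1% ± 1.27 in control libraries, again with overlap. The sum itself was 35.98, 43.3, 35.1 and 33.01 FPKM in bigenic and 52.1, 52.7, 52.3 and 46.7 FPKM in control libraries. Each bigenic sum lay below each control sum, but FPKM carries no TMM factor. That factor was 0.969 for bigenic library 2 and 1.05 for control library 4. Divided by it, the sums of these libraries changed order, so the groups overlapped. Markers of the cells that express the Etv genes moved in both directions. Of 7 other Bergmann glia markers, 1 was called higher and 2 lower, with summed levels of 3987 to 4469 CPM in bigenic mice and 3479 to 4045 CPM in control mice and a median log2 fold change of 0.09. Their log2 fold changes ran from -2.36 to 0.97. Of 8 other granule cell markers, 2 were called higher and 2 lower, with sums of 5302 to 7176 CPM in bigenic mice and 5363 to 6580 CPM in control mice and a median of -0.03. These ran from -0.55 to 0.56 in log2 fold change. Of the Bergmann glia markers 1 was called higher and 1 lower without control libraries 2 and 3, and of the granule cell markers 1 was higher and 0 lower. None of these markers was at 0, the lowest being Fabp7 with a minimum of 7.70 CPM in bigenic mice and 47.9 CPM in control mice. The part of these cell types in the Etv differences was not tested.

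Among the Sprouty genes the paralogues differed in opposite directions. Spry1 (chromosome 3, 37639947 to 37644599, plus strand) measured 22.5, 23.5, 38.8 and 24.1 CPM in bigenic mice and 13.6, 13.8, 12.8 and 11.8 CPM in control mice. All bigenic values were above all control values, and 3 of the 4 bigenic libraries lay close together below bigenic library 3. The log2 fold change was 1.07 ± 0.16 (SE), or 2.10-fold, and without bigenic library 3 it was 0.84. Spry2, the Sprouty gene with most transcript here (chromosome 14, 105891947 to 105896819, minus strand), measured 55.3, 47.2, 57.2 and 52.0 CPM in bigenic mice and 66.1, 62.0, 65.3 and 56.6 CPM in control mice. Its groups overlapped in bigenic library 3 and control library 4, with a log2 fold change of -0.24 ± 0.08 (SE). That call was lost in 6 of the 8 fits that left out a library and without control libraries 2 and 3. Spry1 made up 25.1%, 28.3%, 34.99% and 27.1% of the Sprouty FPKM in bigenic libraries 1 to 4, against 14.3%, 14.7%, 13.4% and 13.6% in control libraries 1 to 4. Exons of Spry1 overlap an antisense gene that the table does not list.

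The promoters of Spry1 and Spry2 are shown because these paralogues differed in direction, and that of Dusp6 because it held 2 of the motifs searched. RefSeq windows of 300 bases, from 250 before to 50 after the start (GRCm38.p6), matched 7 of the 10 genes in 10 windows. The bases before the start are printed 5′ to 3′ on the gene's strand, with any octamer bound by Capicua in capitals. Spry1 lies at chr3:37639697-37639946 (plus strand), Spry2 at chr14:105896820-105897069 (minus strand) and Dusp6 at chr10:99262981-99263230 (plus strand).
Spry1: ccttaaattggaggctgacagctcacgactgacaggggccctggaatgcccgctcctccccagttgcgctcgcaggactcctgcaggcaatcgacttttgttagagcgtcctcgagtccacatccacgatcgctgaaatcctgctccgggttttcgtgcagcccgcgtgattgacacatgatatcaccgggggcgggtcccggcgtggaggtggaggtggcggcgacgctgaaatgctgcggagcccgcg
Spry2: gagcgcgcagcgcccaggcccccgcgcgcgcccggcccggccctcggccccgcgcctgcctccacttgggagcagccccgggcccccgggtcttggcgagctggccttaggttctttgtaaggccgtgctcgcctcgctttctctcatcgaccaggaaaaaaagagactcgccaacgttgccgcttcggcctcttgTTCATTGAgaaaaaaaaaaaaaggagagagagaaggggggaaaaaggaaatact
Dusp6: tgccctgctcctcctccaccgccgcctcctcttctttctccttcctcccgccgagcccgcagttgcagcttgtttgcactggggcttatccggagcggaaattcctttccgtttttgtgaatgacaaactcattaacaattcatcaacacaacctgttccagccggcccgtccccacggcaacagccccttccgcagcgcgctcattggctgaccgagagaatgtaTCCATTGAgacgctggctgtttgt
Capicua octamers were searched on both strands as TGAATGAA, TGAATGGA, TCAATGAA and TCAATGGA, of which none overlapped another in these windows. Spry2 held 1 octamer, beginning at base -54 from the start, and Dusp6 held 1 at -24 and 1 more at base 2 after the start, each on the opposite strand, while the Spry1 window held none of these letters. An octamer in any of the 4 forms was in 2 of the 10 member windows and in 3.84% of all 32851 windows. The windows of Etv1, Etv5, Fgfr2 and Fgfr3 held none, and Etv4, Spry4 and Fgfr1 had no window. The ETS site CCGGAAGT, the AP-1 site TGACTCA, the cAMP response element TGACGTCA, the glucocorticoid response element and the CArG box, also searched on both strands, were in none of the member windows and in 3.89%, 5.20%, 1.79%, 0.475% and 1.63% of all windows. GC content was 64.3% in the Spry1 window, 62.7% in that of Spry2 and 57.3% in that of Dusp6, against a median of 52.7% over all windows.

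The last Sprouty gene and Dusp6 were less clear. Spry4, a Sprouty gene with little transcript here (chromosome 18, 38586247 to 38601347, minus strand), measured 2.57, 5.95, 7.15 and 4.92 CPM in bigenic mice and 5.26, 11.5, 8.98 and 12.9 CPM in control mice. It varied most within the groups, with a coefficient of variation of 37.8% in bigenic and 34.6% in control libraries, and control library 1 lay among the bigenic libraries. The log2 fold change was -0.91 ± 0.31 (SE), and the call was kept in 9 of 18 alternatives. It was lost in 6 of the 8 fits that left out a library and in both fits without a filter on low counts. Without control libraries 2 and 3 it was also lost, with a log2 fold change of -0.82. Dusp6, the gene of an ERK phosphatase (chromosome 10, 99263231 to 99267489, plus strand), measured 27.2, 38.5, 49.9 and 35.9 CPM in bigenic mice and 37.7, 43.5, 37.7 and 38.9 CPM in control mice. Bigenic libraries held both the lowest and the highest of its 8 values, and the log2 fold change was -0.06 ± 0.15 (SE). Without bigenic library 1 it was 0.07 and without bigenic library 3 it was -0.23.

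**Figure D3:**
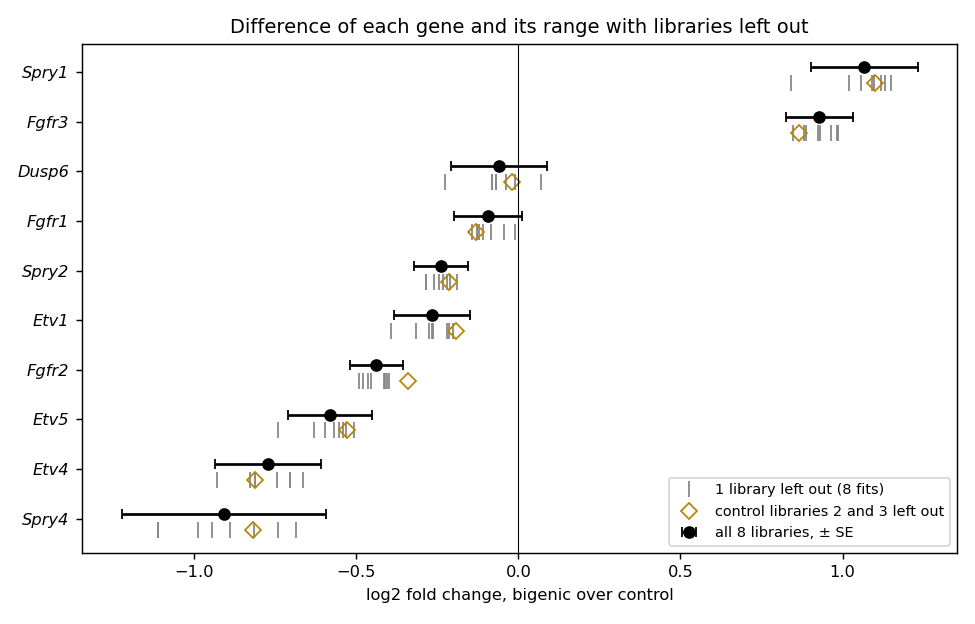
Log2 fold change of each gene, bigenic over control (x axis), with all 8 libraries (black points, bars ± SE), with 1 library left out in turn (grey ticks) and without control libraries 2 and 3 (open diamonds). Spry1 and Fgfr3 stay between 0.84 and 1.15 in these fits, Etv4, Etv5, Fgfr2 and Spry4 stay at or below -0.34, and Dusp6 lies on both sides of 0.

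Within each group, the libraries with the highest and lowest values were compared. Bigenic library 3 was the highest of its group for 7 of the 10 genes and the lowest for the other 3, which were Etv1, Fgfr1 and Fgfr3. Bigenic library 1 was the lowest of its group for 6 genes, and control library 4 the lowest of its group for 5. In the control group no library was highest for more than 4 genes. The highest bigenic library exceeded the lowest by 1.83 times for Dusp6, 1.72 times for Spry1 and 1.54 times for Etv5, against 1.15, 1.18 and 1.23 times among control libraries. Spry4 had the widest ratio in both groups, 2.79 in bigenic and 2.44 in control libraries. The ratios were close for Spry2, at 1.21 in bigenic and 1.17 in control libraries, and for Fgfr2, at 1.17 in bigenic and 1.18 in control libraries. The difference in spread between the groups was not tested.

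By FPKM the order of the members' levels was led by different genes in the groups. In bigenic cerebellum Fgfr3 came first at 34.5 ± 5.67 FPKM, before Etv1 at 26.6 ± 4.95 and Spry2 at 24.6 ± 1.95 (SD, n = 4 each), and of these 3 each overlapped the next. Fgfr2 at 18.1 ± 1.11 and Dusp6 at 13.1 ± 3.02 FPKM followed. In control cerebellum Etv1 came first at 33.8 ± 2.28 FPKM and overlapped Spry2 at 30.8 ± 1.81, followed by Fgfr2 at 26.0 ± 1.85 and Fgfr3 at 19.2 ± 1.41. Spry1 was 6th of 10 in bigenic libraries at 10.6 ± 2.82 FPKM, overlapping Dusp6, and 9th of 10 in control libraries at 5.37 ± 0.357 FPKM, overlapping Etv4. Fgfr1 stood at 7.82 ± 1.14 FPKM in bigenic and 8.84 ± 0.705 FPKM in control libraries, and Etv5 at 7.08 ± 1.34 FPKM in bigenic and 11.3 ± 0.951 FPKM in control libraries. These neighbours overlapped in bigenic libraries, and Etv5 stood above Fgfr1 in control libraries. Etv4 was at 3.23 ± 0.718 FPKM in bigenic and 5.86 ± 0.699 FPKM in control libraries. Spry4 was last in both groups, at 1.08 ± 0.397 FPKM in bigenic and 2.17 ± 0.768 FPKM in control libraries.

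Of the other genes of the pathway, written as 8 lists from general knowledge, 104 of 119 were tested: 36 rose and 15 fell in bigenic cerebellum and 53 did not pass, so that 49.0% were called, against 44.3% of all genes. Their median log2 fold change was 0.10. With library size alone as the scaling 28 rose and 20 fell, and on log2(FPKM + 1) by limma 26 rose and 19 fell. Without control libraries 2 and 3, 20 rose and 7 fell, and 21.9% of all genes tested were called in either direction. The shares of 44.3% and 21.9% over all genes also stand beside the counts of each list below. Adjusted p-values for the genes below are from edgeR's quasi-likelihood test, n = 4 per group.

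Secreted FGF ligands differed little in the genes with most transcript. Of 18 ligand genes 10 were tested, 2 rose, 0 fell (also 0 at an unadjusted p under 0.05 and 0 by DESeq2) and 8 did not pass. Fgf1 and Fgf9, the ligand genes with most reads and named after their values were seen, were at 161 ± 14.1 and 66.7 ± 2.99 CPM in bigenic mice and at 156 ± 5.37 and 65.9 ± 6.51 CPM in control mice (SD; log2 fold changes 0.04 and 0.02). Both ligand genes that rose were near the floor of detection. Fgf5 was at 1.61 ± 0.391 CPM in bigenic mice and 0.879 ± 0.264 CPM in control mice (adjusted p = 0.023), and Fgf20 at 0.945 ± 0.187 CPM in bigenic mice and 0.552 ± 0.0874 CPM in control mice (adjusted p = 0.024). These calls were lost in 4 of 8 fits for Fgf5 and 5 of 8 for Fgf20 when a library was left out, and both without control libraries 2 and 3. Among 4 intracellular FGF homologous factors, which act on ion channels rather than on receptors, 0 passed by edgeR or DESeq2 and 1 had an unadjusted p under 0.05. Fgf12 was at 242 ± 18.9 CPM in bigenic mice and 230 ± 23.7 CPM in control mice (adjusted p = 0.49), and Fgf14 at 196 ± 20.2 CPM in bigenic mice and 165 ± 20.8 CPM in control mice (adjusted p = 0.067), a gene that passed with the replicate block and without bigenic library 1 or control library 3. Fgf20 shares exonic sequence with Micu3 on the opposite strand.

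Co-receptors and heparan sulphate enzymes moved in both directions. Of 15 tested, 6 rose and 4 fell, whereas 4 rose and 7 fell with library size alone and 3 rose and 7 fell on log2(FPKM + 1). When control libraries 2 and 3 were left out, 3 rose and 3 fell. Fgfrl1, an FGF receptor without a kinase domain, fell to 7.76 ± 0.669 CPM in bigenic mice, against 14.5 ± 1.06 CPM in control mice (log2 fold change -0.90 ± 0.11, SE; adjusted p = 9.8e-05). Sulf1, a sulphatase that trims heparan sulphate outside the cell, fell to 34.3 ± 3.83 CPM in bigenic mice, against 65.0 ± 14.5 CPM in controls (-0.92 ± 0.15; adjusted p = 0.00057), and the 2 controls with most choroid plexus transcript were its highest, at 73.6 and 81.0 CPM. Without these controls the log2 fold change of Sulf1 was -0.62 and still passed. Of 6 enzymes that build the chains, Ext2, Ndst1 and Hs6st1 rose, and Ext1, Hs2st1 and Hs6st2 did not pass, with log2 fold changes of -0.18, -0.14 and -0.13. Apart from Ext2 and Ndst1, these genes were named after their values were seen. Hs6st1 was at 59.7 ± 7.17 CPM in bigenic mice and 48.9 ± 4.83 CPM in control mice, with overlapping groups (adjusted p = 0.037). Ext2, a subunit of the polymerase, was at 64.0 ± 1.72 CPM in bigenic mice and 44.1 ± 2.13 CPM in control mice (adjusted p = 0.00015), and the sulphotransferase gene Ndst1 at 117 ± 7.53 CPM in bigenic mice and 81.6 ± 6.88 CPM in control mice (adjusted p = 0.00044). Kl, the co-receptor gene klotho, also a choroid plexus marker and named after its values were seen, was at 0.77, 1.11, 0.54 and 0.61 CPM in bigenic mice and 5.96, 40.4, 46.4 and 2.44 CPM in control mice (adjusted p = 0.0089).

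More genes of the Ras-ERK cascade were called higher than lower. All 29 were tested, 10 rose and 4 fell, and the median log2 fold change was 0.04. The share called was 48.3%, against 44.3% of all genes tested. With library size alone 8 rose and 4 fell, and on log2(FPKM + 1) 7 rose and 4 fell. Gab2, an adaptor downstream of FGF receptors, was at 52.2, 53.9, 65.2 and 53.7 CPM in bigenic mice and 29.9, 31.9, 32.3 and 30.5 CPM in control mice (log2 fold change 0.85 ± 0.09, SE; adjusted p = 4.1e-05). Ptpn11, which encodes the phosphatase SHP2 that FGF receptors need to activate Ras, was at 411 ± 22.9 CPM in bigenic mice and 272 ± 5.97 CPM in control mice (adjusted p = 6.7e-05). The scaffold gene Ksr2 rose by 0.42 ± 0.07 (SE) on the log2 scale (adjusted p = 0.00069) and the kinase gene Mknk2, a target of ERK, by 0.65 ± 0.11 (adjusted p = 0.00072). Without control libraries 2 and 3, 7 cascade genes rose and 1 fell.

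Other inhibitors and targets of ERK were also mixed. Among 18 inhibitors tested 4 rose and 2 fell, whereas 3 rose and 4 fell with library size alone and 4 rose and 4 fell on log2(FPKM + 1). Without control libraries 2 and 3, 3 rose and 0 fell. Errfi1, an inhibitor of EGF receptors, was at 87.5, 151, 175 and 128 CPM in bigenic mice and 66.0, 71.0, 68.8 and 61.5 CPM in control mice (log2 fold change 1.02 ± 0.17, SE; adjusted p = 0.00072). Spred1, a relative of the Sprouty genes, was at 362, 340, 479 and 360 CPM in bigenic mice and 266, 275, 257 and 256 CPM in control mice (0.55 ± 0.10; adjusted p = 0.0013). In both, bigenic library 3 was the highest of its group, as in Spry1. Cblb, a ubiquitin ligase gene, rose by 0.64 ± 0.10 (SE; adjusted p = 0.00055) and Spred3 fell by 0.43 ± 0.13 (SE; adjusted p = 0.021), a call lost when bigenic library 4, control library 3 or control libraries 2 and 3 were left out. Spred3 overlaps Ggn on the opposite strand.

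ERK target genes outside the Etv, Spry and Dusp6 set differed by up to 3.02-fold, with 6 of 13 tested higher and 3 lower. The immediate early gene Egr1 was at 8.34 ± 2.24 CPM in bigenic mice and 2.75 ± 0.667 CPM in control mice (log2 fold change 1.597 ± 0.22, SE; adjusted p = 0.00021), and Myc at 2.75 ± 0.416 CPM in bigenic mice and 1.23 ± 0.246 CPM in control mice (adjusted p = 0.00091). Other immediate early genes, named after their values were seen, went both ways. Fos was at 9.55 ± 6.59 CPM in bigenic mice and 25.1 ± 15.8 CPM in control mice (log2 fold change -1.40 ± 0.70, SE, adjusted p = 0.14). Ier2 had a log2 fold change of -0.30, and Junb, Fosl2 and Ier3 had 0.69, 0.57 and 0.39. The cell cycle gene Ccnd1 fell to 19.1, 23.5, 13.5 and 15.8 CPM in bigenic mice, against 44.5, 47.8, 50.7 and 41.05 CPM in control mice (-1.36 ± 0.15; adjusted p = 6.8e-05), and the transcription factor gene Ets1 to 7.59 ± 1.13 CPM in bigenic mice, against 17.0 ± 1.48 CPM in control mice (-1.16 ± 0.13; adjusted p = 5.6e-05). Ets1 is also expressed by vessel cells: 9 endothelial markers summed to 219 to 243 CPM in bigenic mice and 249 to 278 CPM in control mice, with 2 called lower and 0 higher (1 higher at an unadjusted p under 0.05, 1 by DESeq2). Their part in the Ets1 difference was not tested. In the Capicua complex, Cic, the gene of Capicua itself, named after its values were seen, was at 38.9 ± 11.2 CPM in bigenic mice and 26.6 ± 7.53 CPM in control mice (log2 fold change 0.55 ± 0.22, SE; adjusted p = 0.063). Atxn1l, which encodes a partner of Capicua, rose by 0.67 ± 0.08 (SE; adjusted p = 9.9e-05), and Atxn1 was at 102 ± 13.6 CPM in bigenic mice and 106 ± 5.05 CPM in control mice (adjusted p = 0.61). Of these 3 genes, edgeR called 1 higher and DESeq2 called 2. Without control libraries 2 and 3, 3 target genes rose and 2 fell.

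Receptor tyrosine kinases other than FGF receptors were called in 9 of 12 cases, 7 higher and 2 lower, against 44.3% of all genes tested. Without control libraries 2 and 3 they were called in 4, 3 higher and 1 lower, against 21.9% of all genes tested. Egfr, the receptor gene for EGF family ligands, rose by 0.82 ± 0.12 (SE; adjusted p = 0.00029) to 52.4 ± 8.74 CPM in bigenic mice, against 29.7 ± 2.67 CPM in control mice. Ntrk3, a neurotrophin receptor gene, rose by 0.50 ± 0.08 (adjusted p = 0.00038) and Pdgfra, a receptor gene of oligodendrocyte precursors, by 0.40 ± 0.08 (adjusted p = 0.0029). Pdgfra was the 1 gene called higher among 8 precursor markers, of which 2 were called lower, and the 8 summed to 241.0 to 268 CPM in bigenic mice and 242 to 265 CPM in control mice. Erbb3, a receptor gene of the oligodendrocyte lineage, was at 7.13, 8.44, 3.05 and 4.70 CPM in bigenic mice and 10.96, 12.5, 11.7 and 13.2 CPM in control mice (-1.05 ± 0.25, SE; adjusted p = 0.0056). Oligodendrocyte markers summed to 4503 to 6040 CPM in bigenic mice and 4178 to 5069 CPM in control mice, with 3 of 9 called higher and 2 lower, and 0 higher and 1 lower without control libraries 2 and 3.

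**Figure D4:**
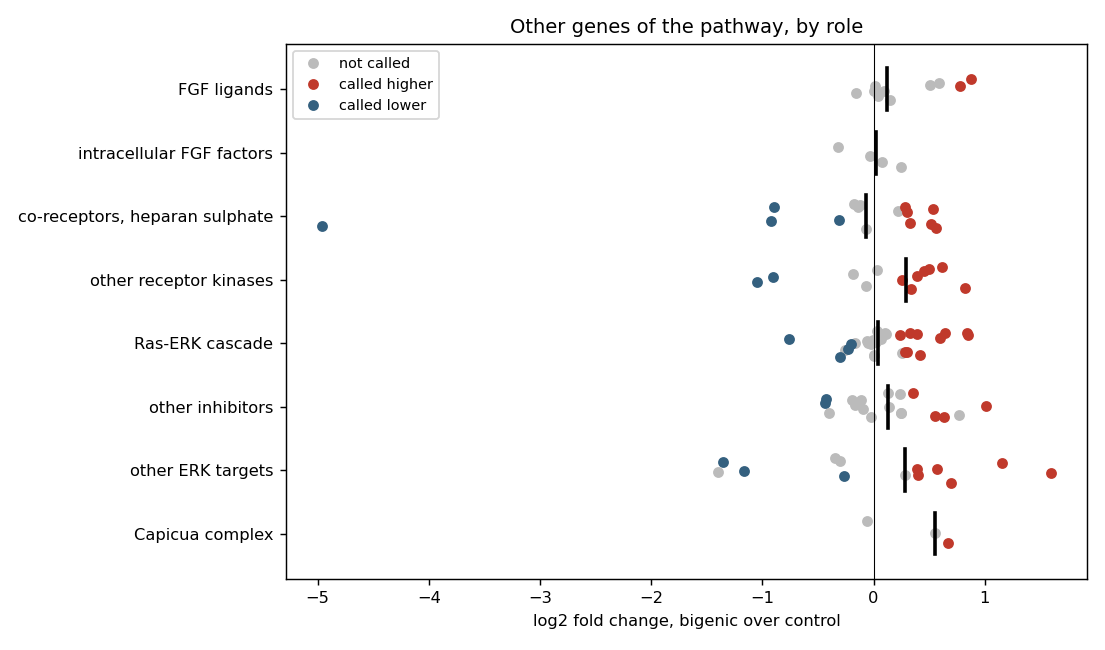
Log2 fold change, bigenic over control (x axis), of the tested pathway genes other than the 10 members, 1 point per gene, grouped by role, in red where called higher, blue where called lower and grey otherwise, with a black bar at each list's median. Points lie on both sides of 0 in each of the 8 lists, and the point near -5 is Kl.

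For each member, the gene outside the set with the most similar levels over the 8 libraries was found by Pearson's r of log2 CPM, which follows the group difference where there is one and is given as a description. Spry1 was most like Scaf8 (r = 0.995), Fgfr3 most like Fbxl12 (r = 0.995), and Spry4 most like the immediate early gene Nr4a1 (r = 0.990). Fgfr1 was most like Atg16l2 (r = 0.992), Fgfr2 most like Chml (r = 0.991), Etv1 most like Car10 (r = 0.984) and Etv5 most like Gfer (r = 0.982). Etv4 was most like Cdca2 (r = 0.976) and Spry2 most like Derl3 (r = 0.982). Dusp6, which differed least between groups, had the lowest r, with Aida (r = 0.933).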

How the data were processed

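RNA of whole cerebellum from 4 bigenic and 4 control mice was sequenced as 1 library per mouse. The labels disagree on the preparation: the series design names another extraction kit, library kit and instrument than the sample protocols, which name stranded TruSeq libraries with ribosomal RNA removal. STAR, HTSeq and mm10 are named in the submitters' processing notes; versions and the strand setting are not given in the sources used here. The authors deposited raw read counts per gene symbol and FPKM, which are the same counts over 1 length for each gene and over the sum of the column (within 0.1% for 100% of the 15146 genes checked).

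Counts were analysed with edgeR 4.0.16 in R 4.3.3: filterByExpr, TMM, robust quasi-likelihood F test on all 8 libraries, Benjamini-Hochberg adjustment over 15186 genes, threshold 0.05; each SE is that of the fit. The script was tested on simulated data. Alternatives used DESeq2 1.42.0, limma 3.58.1, other scalings, no filter, a replicate block and libraries left out. Named pathway genes are up to 4 called genes per list with the smallest p, or the 2 most abundant where fewer than 2 were called. Members, lists and tests were chosen with earlier results of these data known. Each mouse has its own label, so replicates are separate animals. Gene coordinates are from RefSeq (GRCm38.p6, the build called mm10), exon overlaps from GENCODE M21. Protein sequences were not used here.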

Additional observations from a re-analysis of the deposited data

Results flagged for a closer look

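In 4 genes the value of bigenic library 3 stood apart from the other 3 bigenic libraries by a gap that took up most of the group's range. Spry1 was at 38.84 CPM in bigenic library 3, against 22.5 to 24.1 CPM in the other 3, a gap of 0.905 of the range. Spred1 was at 478.6 CPM there, against 340.3 to 362 CPM, Gab2 at 65.23 CPM, against 52.2 to 53.9 CPM, and Atxn1l at 113.4 CPM, against 98.4 to 100.5 CPM. Each gap was above Dixon's 95% critical value for a group of 4. Chance flags about 1 in 20 groups, and 4 of 72 groups were flagged, all 4 in the same library.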

How the results depend on the processing

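Over 18 alternatives, 156 of 180 log2 fold changes of the 10 members and 447 of 468 of the 26 named pathway genes kept their direction and their side of the threshold. Without control libraries 2 and 3, which also leaves fewer samples, 3394 genes were called (1619 higher, 1775 lower), with 4 members (2 lower) and 27 pathway genes (20 higher, 7 lower). With 1 library left out, 5281 to 7411 genes were called (2544 to 3588 higher, 2737 to 3823 lower), 5 to 7 members (3 to 5 lower) and 36 to 50 pathway genes (27 to 34 higher, 9 to 16 lower). The members called lower numbered 3 without bigenic library 1 or 4 or control library 2 or 3, and the pathway genes called lower numbered 9 without control library 2. On log2(FPKM + 1) without a filter 23 pathway genes were higher. Scaled by library size alone, 2423 were called higher and 4373 lower, against 3249 and 3485 with TMM. With 1 library left out, Dusp6 ranged between -0.23 and 0.071 and changed sign without bigenic library 1 (0.071), and Fgf12 with library size alone (-0.0074), on log2(FPKM + 1) with and without a filter (-0.0037 in both) and on log2(FPKM + 0.1) (-0.0037); the cause was not tested. The labels number the mice from 1 to 4 in each group, while the library titles carry animal numbers that the groups do not share. Libraries with the same label number deviated together with r = 0.33, 0.024, 0.17 and 0.063. Of the bigenic libraries, 3 of 4 correlated best with their own number. The labels used here name no pairing, and whether the numbers mark a pairing was not tested. With the replicate block 7443 genes, 8 members and 57 pathway genes were called. Among the members Spry4 had the fewest reads, 90 in bigenic library 1.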
